A study of Mus musculus with 20 samples.

Results

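The genes described here are named for the nuclear subunits of the mitochondrial respiratory chain, complexes I to V. They were chosen by symbol in the platform annotation: every gene starting with Ndufa, Ndufb, Ndufc, Ndufs, Ndufv, Uqcr, Cox4i, Cox5, Cox6, Cox7, Cox8 or Atp5, plus the Sdh genes and Cyc1, without the Ndufaf assembly factors. The rule found 80 genes read by 123 probes, of 19057 genes and 45281 probes on the array. Of these genes, 36 belong to complex I, 4 to complex II, 8 to complex III, 16 to complex IV and 16 to complex V. Those of complex I include Ndufs5-ps, whose symbol carries the suffix of a pseudogene, and it was kept in all counts. Measured values played no part in the rule.

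Illumina bead arrays measured total RNA of 20 samples of mouse embryonic stem cells (ESC) and mouse embryonic fibroblasts (MEF), which are connective tissue cells grown from embryos. All cells were on the C57BL/6 background, and the mutant groups carried the allele Mysm1tm1a(KOMP)WTSI of Mysm1, whose product takes ubiquitin off histone H2A. The ESC groups were Mysm1tma1/tm1a (hom, 3 arrays), Mysm1+/tm1a (het, 3) and wild type (wt, 3), and their replicates were passages kept apart from one another. The MEF groups were hom (3 arrays), het (4) and wt (4), from that many animals. The labels' cell-type tag for the ESC samples reads MSCs. How many ESC lines the passages came from is not given in the sources used here, so the spread behind the ESC p-values may be that of passages alone.

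The respiratory chain sits in the inner mitochondrial membrane. Complex I takes electrons from NADH and complex II from succinate, complex III passes them to cytochrome c, and complex IV (cytochrome c oxidase) hands them to oxygen. Complexes I, III and IV pump protons, and complex V (ATP synthase) lets the protons back to make ATP. Most subunits are made from nuclear genes, and some complex IV subunits come as pairs of isoforms, one in most tissues and one in heart, skeletal muscle or testis. Pluripotent stem cells are known to make much of their ATP by glycolysis.

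The labels were checked against marker genes. Of 10 pluripotency markers, 10 were above background on every ESC array and 1 or 2 on every MEF array. Of 12 fibroblast markers, 11 were above background on every MEF array, and 7 to 10 on the ESC arrays. The median of the fibroblast markers was 8.33, 9.14 and 8.04 (log2 intensity) in ESC hom 2, ESC het 2 and ESC wt 2, and 5.23 to 6.35 on the other 6 ESC arrays. Mysm1 went against the labels on 2 arrays: it was 4.45 and not above background in ESC het 1, and 6.47 in ESC hom 1, above hom 2 (5.42) and hom 3 (4.81). In MEF, Mysm1 was 5.44, 5.41 and 4.99 in hom, 6.40 to 6.75 in het and 7.0 to 7.54 in wt. Hom against wt gave −2.07 ± 0.185 in MEF (limma adjusted p = 0.00460) and −2.04 in ESC (limma adjusted p = 0.297, and 0.0462 in a fit blocked by replicate number). Raw signal of MEF hom 3 was brighter than on the other arrays (median 95.7, against 53.2 to 59.95). The share of probes above background was 28.5 to 31.8%, and the number of arrays limits the precision.

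A probe was tested where its detection p, the authors' measure against negative control beads, was under 0.01 on at least 3 arrays of the fit. On all 20 arrays together 70 of the 80 genes passed: 34 of complex I, 2 of II, 7 of III, 12 of IV and 15 of V. The probes of 9 genes were above background on 0 arrays: Ndufs1 and Ndufb4 of complex I, Sdha of complex II, Uqcrfs1 of complex III, Cox4i2, Cox7b2, Cox8b and Cox8c of complex IV, and Atp5md of complex V. Sdhd was above background on 2 arrays. Sdha, Ndufs1 and Uqcrfs1 encode catalytic subunits that every respiring cell uses, so a probe at background is not read here as a gene without expression. Where a gene had several probes, the brightest was read.

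Promoters are shown for 6 genes that the results below turn on: Cox7a1 and Cox6b2, the tissue isoforms that were higher in ESC, Cox6a1 and Cox6b1, the widely expressed partners of tissue isoforms, and Uqcrc1 and Ndufs6, the largest rises of complexes III and I. Each runs 5′ to 3′ from 250 bases before to 50 after the annotated start (RefSeq, GRCm38.p6). Capitals mark a match on either strand to a motif of 1 of 4 factors known to act on respiratory genes: NRF1 (CGCNTGCGC), ETS factors such as GABP (CCGGAAG), YY1 (AAGATGGCG) and ERR nuclear receptors (AAGGTCA).
Cox7a1 (chr7:30183921-30184220, plus strand): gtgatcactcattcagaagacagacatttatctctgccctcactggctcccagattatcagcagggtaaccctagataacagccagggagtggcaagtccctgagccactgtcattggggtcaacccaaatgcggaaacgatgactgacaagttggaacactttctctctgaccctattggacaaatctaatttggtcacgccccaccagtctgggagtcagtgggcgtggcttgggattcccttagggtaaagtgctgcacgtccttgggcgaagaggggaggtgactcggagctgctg
Cox6b2 (chr7:4753045-4753344, minus strand): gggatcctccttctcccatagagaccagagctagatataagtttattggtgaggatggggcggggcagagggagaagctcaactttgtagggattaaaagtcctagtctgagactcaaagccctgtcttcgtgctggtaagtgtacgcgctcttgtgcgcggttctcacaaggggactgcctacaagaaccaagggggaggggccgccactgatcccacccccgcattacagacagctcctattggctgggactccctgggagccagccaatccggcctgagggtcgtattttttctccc
Cox6a1 (chr5:115348909-115349208, minus strand): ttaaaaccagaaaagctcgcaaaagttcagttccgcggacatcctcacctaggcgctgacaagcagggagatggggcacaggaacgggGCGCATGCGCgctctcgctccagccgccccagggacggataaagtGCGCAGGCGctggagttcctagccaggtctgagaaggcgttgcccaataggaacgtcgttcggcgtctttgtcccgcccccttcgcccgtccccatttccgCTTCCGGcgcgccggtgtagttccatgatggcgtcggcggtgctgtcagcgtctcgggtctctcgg
Cox6b1 (chr7:30626065-30626364, minus strand): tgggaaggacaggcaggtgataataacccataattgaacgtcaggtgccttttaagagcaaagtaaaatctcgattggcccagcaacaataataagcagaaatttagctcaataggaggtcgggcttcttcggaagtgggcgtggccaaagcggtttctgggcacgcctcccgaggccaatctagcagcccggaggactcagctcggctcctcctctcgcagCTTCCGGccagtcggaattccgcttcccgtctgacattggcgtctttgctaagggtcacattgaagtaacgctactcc
Uqcrc1 (chr9:108936398-108936697, plus strand): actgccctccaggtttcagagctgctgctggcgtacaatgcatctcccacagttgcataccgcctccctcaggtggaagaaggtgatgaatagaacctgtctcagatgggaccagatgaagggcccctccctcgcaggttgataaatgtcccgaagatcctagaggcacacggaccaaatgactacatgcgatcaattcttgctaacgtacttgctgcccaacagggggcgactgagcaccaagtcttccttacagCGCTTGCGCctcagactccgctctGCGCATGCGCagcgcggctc
Ndufs6 (chr13:73328433-73328732, minus strand): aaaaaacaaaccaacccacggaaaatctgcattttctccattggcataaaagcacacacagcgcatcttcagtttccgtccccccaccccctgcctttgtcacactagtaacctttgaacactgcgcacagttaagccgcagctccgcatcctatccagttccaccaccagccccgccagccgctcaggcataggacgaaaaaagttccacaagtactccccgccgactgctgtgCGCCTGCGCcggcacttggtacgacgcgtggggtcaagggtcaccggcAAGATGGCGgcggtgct
Cox7a1 and Cox6b2 held none of the 4 motifs in this window. Cox7a2, the widely expressed partner of Cox7a1, is not shown and held none either. Cox6a1 held 3 matches to NRF1 and 1 to ETS, Cox6b1 held 1 to ETS, Uqcrc1 held 3 to NRF1, and Ndufs6 held 1 to NRF1 and 1 to YY1. A run such as the one in Cox6a1 that reads the same on both strands counts on each strand, so these matches can overlap.

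Of the 80 genes, 65 had a promoter in the table. NRF1 matches stood in 29.2% of them, against 14.8% of the 8050 genes tested on the arrays and 7.03% of all 27025 genes in the table. ETS matches stood in 24.6%, against 19.7% and 9.93%. YY1 matches stood in 10.8%, against 3.52% and 1.64%, and ERR matches in 10.8%, against 3.83% and 5.38%. Any of the 4 stood in 53.8% of the 65, against 35.4% of genes tested on the arrays and 21.2% of all genes in the table. By complex, any of them stood in 16 of 32 complex I promoters, 3 of 3 of complex II, 3 of 5 of complex III, 2 of 11 of complex IV (18.2%) and 11 of 14 of complex V. The 2 of complex IV were Cox6a1 and Cox6b1, so most widely expressed complex IV genes with a promoter also held none. A match is only a run of letters, and its absence says only that the letters are not in this window.

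The largest contrast among these genes was between cell types. Comparing the ESC wt arrays with the MEF wt arrays, 32 of the 70 genes were higher and 6 lower (54.3%), where limma, adjusted over all probes tested, called 59.1% of all genes (31.9% higher and 27.2% lower). The share called was below that of all genes, while the direction was uneven. In RNA of whole cultures, fewer cells of a type and less RNA per cell cannot be told apart. The median difference of the 70 genes was 0.31 on the log2 scale, against 0.05 over all genes tested, and the median size regardless of sign was 0.35, against 0.68. Complex III had 5 of 7 genes higher (median 0.56) and complex IV 6 of 12 higher and 3 lower (median 0.53). Complex I had 15 of 34 higher and 3 lower (median 0.31), complex V 6 of 15 higher and 0 lower (median 0.25), and complex II 0 of 2 (median −0.14).

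**Figure D1:**
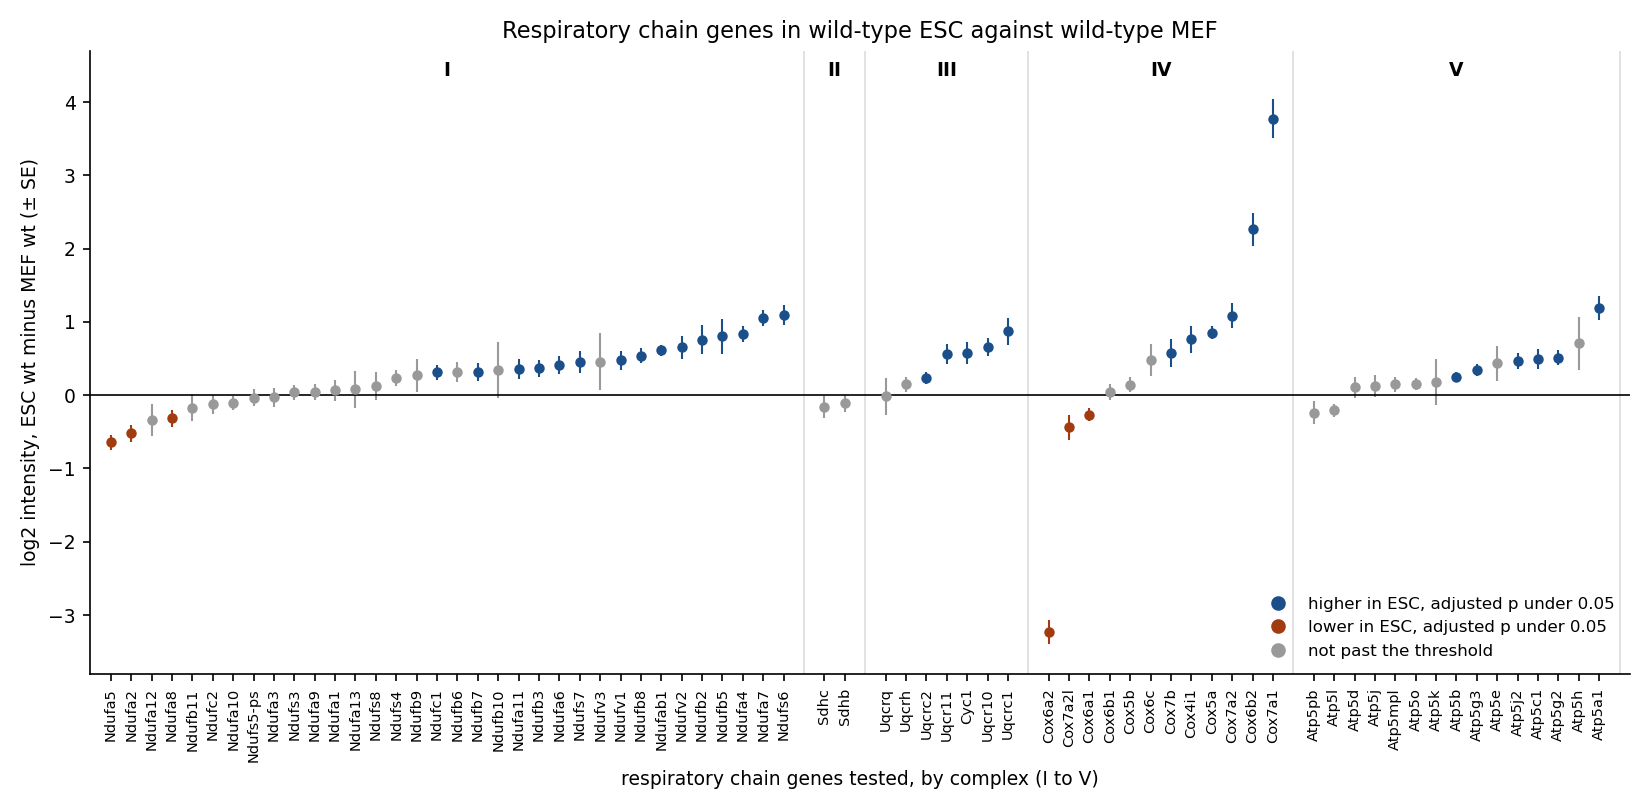
Each point is 1 of 70 genes, ordered within its complex, with the log2 intensity in ESC wt (n = 3) minus that in MEF wt (n = 4) and its standard error on the vertical axis. Cox7a1 (3.77), Cox6b2 (2.26) and Cox6a2 (−3.23) of complex IV lie outside the range of the others, −0.64 to 1.19.

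The same direction held in the mutant genotypes. In het ESC against het MEF 29 genes were higher and 6 lower (50% of 70, against 56.5% of all genes, 29.8% higher and 26.7% lower), with a median of 0.31. In hom ESC against hom MEF 27 were higher and 4 lower (44.3%, against 56.7% of all genes, 30% higher and 26.7% lower), with a median of 0.28. Slide was inferred from the number that opens each array's code in the sample descriptions, and slides were numbered in order of appearance. The cell types shared only the slide of MEF wt 4, which held no other MEF array. With slide as a fixed block the medians were 0.02 in hom, 0.12 in het and 0.14 in wt, against 0.03, −0.0018 and 0.01 over all genes, and the wt median was 0.21 with no filter on dim probes. In all 3 genotypes 20 genes were called higher and 4 lower, or 34.3% of 70, against 46.7% of all genes tested. The 4 lower ones were Ndufa2, Ndufa5, Cox6a1 and Cox6a2. For complex IV the share was 66.7% of 12.

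Complex IV held the extremes, and they lay in its tissue isoforms. Subunit VIIa is made from Cox7a1, known as the heart and skeletal muscle form, or from Cox7a2, the form of most tissues. Cox7a1 had a log2 intensity of 8.97, 8.94 and 8.39 in ESC hom, 8.92, 8.81 and 8.78 in ESC het, and 9.06, 8.94 and 9.23 in ESC wt. In MEF it was 5.38, 5.54 and 4.73 in hom, 5.70, 5.55, 5.25 and 4.79 in het, and 5.98, 5.02, 4.89 and 5.33 in wt. All 9 ESC arrays lay above all 11 MEF arrays, 4 of which were not above background. The fitted difference in wild type was 3.77 ± 0.266 (SE, limma adjusted p = 2.67e-09), with 2 of the 4 MEF wt arrays above background, and it was 3.52 in het and 3.55 in hom. Cox7a2 differed the same way: it was 6.31, 6.30 and 5.91 in ESC wt, against 5.14, 4.92, 4.85 and 5.43 in MEF wt, where 2 arrays were not above background. Its difference was 1.09 ± 0.173 (limma adjusted p = 4.03e-05). Cox7a2l, a related protein that takes part in joining complexes III and IV, was lower in ESC wt at 9.76, 9.83 and 10.19, against 10.54, 10.32, 10.01 and 10.61 in MEF wt. The groups overlapped, with a difference of −0.44 ± 0.172 (limma adjusted p = 0.0372), and the call was lost without ESC wt 1 (−0.36), ESC wt 2 (−0.39), MEF wt 1 (−0.38) or MEF wt 4 (−0.36).

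Subunit VIa showed the opposite of subunit VIIa in its muscle form. Cox6a2, the heart and skeletal muscle form, was not above background on any ESC array (4.23 to 4.66). It was above background on every MEF array: 7.76, 7.40 and 7.40 in hom, 7.68, 7.74, 7.50 and 7.73 in het, and 7.64, 7.47, 7.23 and 7.86 in wt. Cox6a2 was therefore at least 5.78-fold lower in ESC wt than in MEF wt (limma adjusted p = 3.07e-11), taking for each ESC array the lowest signal above background. The corresponding bounds were 6.55 in het and 5.56 in hom. Cox6a1, the form of most tissues, was 12.03, 12.22 and 12.16 in ESC wt, against 12.30, 12.62, 12.41 and 12.28 in MEF wt. It was lower by 0.27 ± 0.090 in log2 intensity (limma adjusted p = 0.0167), with no overlap between the groups. The call was lost without ESC wt 1 (−0.21), without MEF wt 2 (−0.20) and with arrays set to the same median (−0.16).

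Because Cox6a2 and Cox7a1 are muscle forms, markers of skeletal muscle are given beside them. Of 11 skeletal muscle markers on the array, 3 to 6 were above background on the ESC arrays and 4 to 10 on the MEF arrays. The median of the 9 markers tested was 4.39 to 6.88 in ESC and 4.60 to 7.69 in MEF, so the ranges overlapped. Across the MEF arrays Cox6a2 was 7.23 to 7.86 and the marker median 4.60 to 7.69. In ESC wt against MEF wt, Mylpf, a fast muscle myosin light chain, was 3.02 higher (limma adjusted p = 0.0197). Myl1, another muscle myosin light chain, was lower at −3.59 (limma adjusted p = 0.0218), as was Myh8 at −0.85, and Acta1, skeletal muscle actin, did not pass. The part of muscle cells in the values of Cox7a1 and Cox6a2 was not tested.

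Subunit VIb has a somatic form, Cox6b1, and a testis form, Cox6b2. Cox6b2 was 7.45, 7.27 and 7.36 in ESC hom, 7.61, 7.51 and 7.91 in ESC het, and 7.79, 7.61 and 7.75 in ESC wt. In MEF it was 6.45, 6.31 and 6.43 in hom, 5.56, 5.86, 6.32 and 5.53 in het, and 5.89, 5.24, 4.84 and 5.86 in wt, with wt 3 not above background. Every ESC array lay above every MEF array. The ESC minus MEF difference was 0.97 ± 0.247 for hom, 1.86 ± 0.231 for het and 2.26 ± 0.231 for wt (limma adjusted p = 0.00309, 3.04e-06 and 2.77e-07, in that order). A second Cox6b2 probe was dim on all arrays (4.28 to 4.83). Cox6b1 was 11.74, 11.86 and 11.72 in ESC wt, against 11.73, 11.91, 11.67 and 11.60 in MEF wt, a difference of 0.04 ± 0.103 that did not pass (limma adjusted p = 0.743).

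**Figure D2:**
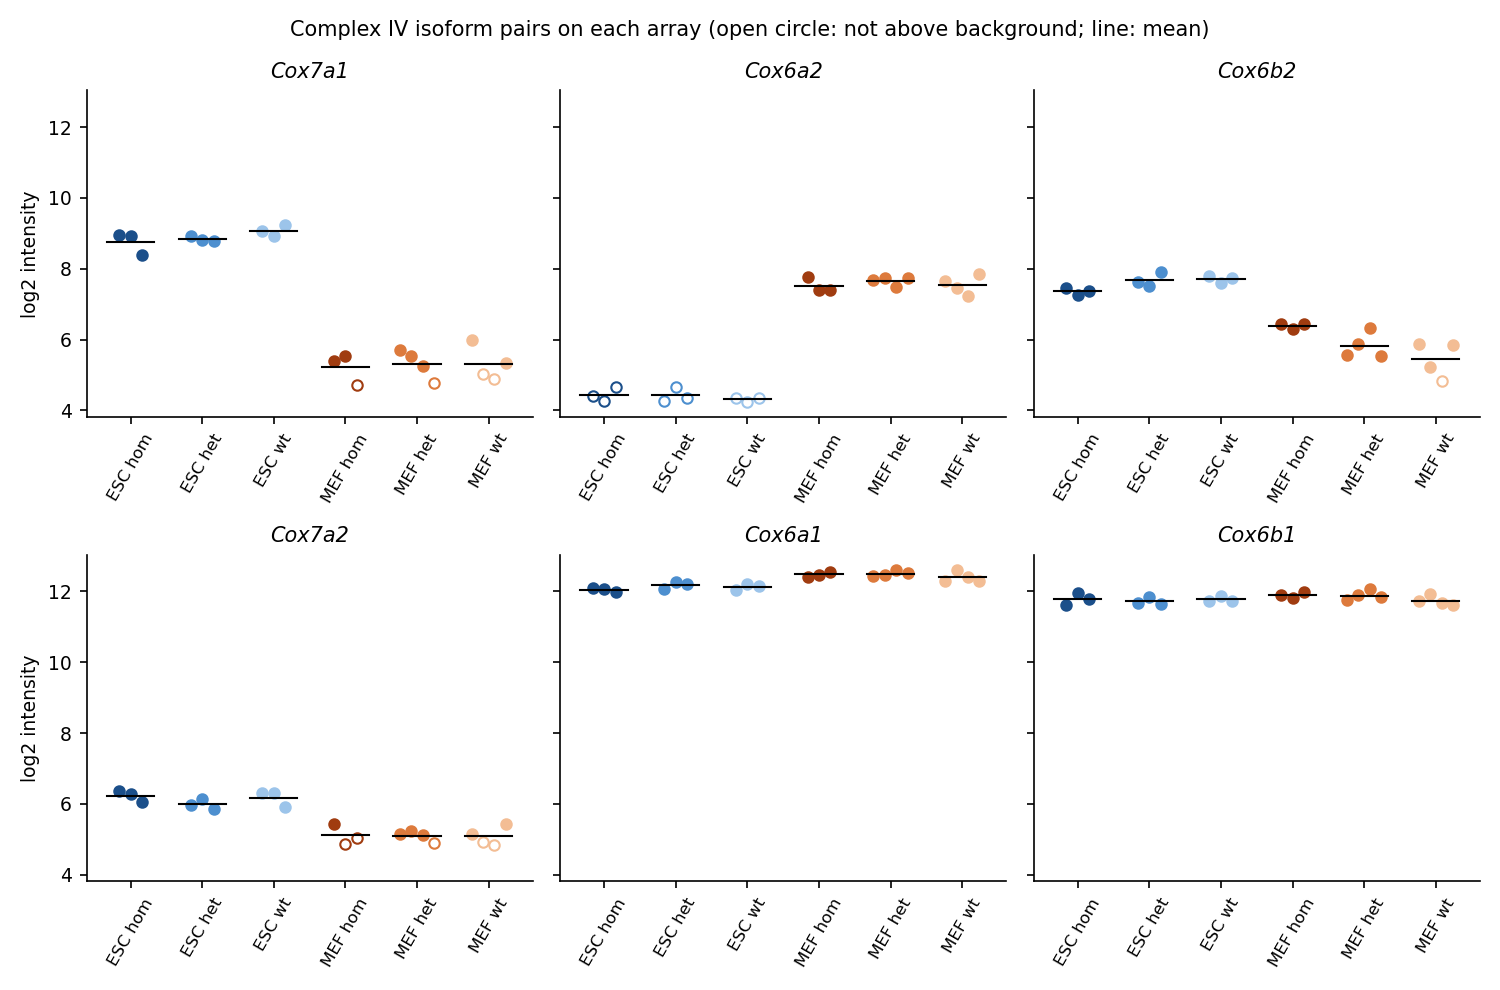
Log2 intensity of 3 tissue isoforms (upper row) and their widely expressed partners (lower row) on each of 20 arrays by cell type and genotype, with group means as lines and open circles for arrays not above background. Cox7a1 and Cox6b2 are higher on every ESC array than on any MEF array and Cox6a2 the reverse, while Cox6b1 overlaps between the cell types.

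Other complex IV genes moved less. Cox5a, subunit Va, was 11.87, 12.04 and 11.88 in ESC wt, against 11.07 ± 0.06 (mean and SD, n = 4) and at most 11.14 in MEF wt, a difference of 0.86 ± 0.094 (limma adjusted p = 6.63e-07). Cox5b was 12.45, 12.66 and 12.56 in ESC wt, against 12.53, 12.23, 12.31 and 12.59 in MEF wt, and its difference of 0.14 ± 0.103 did not pass (limma adjusted p = 0.256). Cox4i1, the widely expressed form of subunit IV, was 13.03, 12.98 and 12.97 in ESC wt, against 12.49, 12.07, 11.91 and 12.45 in MEF wt, a difference of 0.76 ± 0.183 (limma adjusted p = 0.00185). Its lung partner Cox4i2 was not above background on any array. Cox7b was called higher by 0.58 ± 0.191 (limma adjusted p = 0.0163), but its probe was above background on 1 ESC wt and 1 MEF wt array only, and the call was lost without ESC wt 2 (0.42) or MEF wt 2 (0.48). Cox6c, at 0.48, did not pass.

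In complex I the rises were led by accessory subunits, proteins that surround the catalytic core. Ndufs6, which is needed for assembly of the NADH-binding arm, was 12.60, 12.35 and 12.37 in ESC wt, against 11.43, 11.26, 11.09 and 11.64 in MEF wt. The difference was 1.09 ± 0.137, or 2.13-fold (limma adjusted p = 3.14e-06). Ndufa7 was 12.08, 11.82 and 11.96 in ESC wt, against 10.91, 10.94, 10.82 and 10.93 in MEF wt, a difference of 1.05 ± 0.111 (limma adjusted p = 4.24e-07). Ndufa4, named for complex I but now assigned to complex IV, was 11.78, 11.69 and 11.72 in ESC wt, against 10.84, 11.02, 10.73 and 10.97 in MEF wt. Its difference was 0.84 ± 0.106 (limma adjusted p = 3.41e-06). For all 3 genes the ESC wt arrays lay above the MEF wt arrays with no overlap, but they were picked by this same comparison, so this adds no support.

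Of the catalytic core of complex I, Ndufv1, which binds NADH and the flavin, was 12.14, 11.96 and 11.92 in ESC wt, against 11.72, 11.34, 11.33 and 11.72 in MEF wt. It was higher by 0.48 ± 0.130 (limma adjusted p = 0.00460). Ndufv2 (0.65) and Ndufs7 (0.45), which carry iron-sulphur clusters, also passed, whereas Ndufs8 (0.12) and Ndufs3 (0.04) did not. Ndufb2, an accessory subunit of the membrane arm, was not above background on any MEF wt array and was at least 1.44-fold higher in ESC wt (limma adjusted p = 0.00374). Ndufb8 was called in both directions by its probes: the bright one was 0.54 higher, with 11.62 to 11.68 in ESC wt and 11.04 to 11.17 in MEF wt, and a dim one was lower, with 5.04 to 5.35 in ESC wt and 5.95 to 6.31 in MEF wt. Among the 20 genes with several tested probes, 7 had probes of opposite sign in this comparison: Atp5j, Atp5o, Atp5pb, Cox5b, Cox6b1, Ndufb8 and Ndufv3.

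The 3 complex I genes that were lower in ESC wt are also accessory subunits. Ndufa5, of the arm that binds ubiquinone, was 10.07, 10.12 and 10.01 in ESC wt, against 10.65, 10.88, 10.72 and 10.59 in MEF wt, and fell by 0.64 ± 0.101 on the log2 scale (limma adjusted p = 3.41e-05). Ndufa2, of the NADH-binding arm, was 11.01, 10.93 and 10.90 in ESC wt, against 11.45, 11.52, 11.45 and 11.45 in MEF wt (−0.52 ± 0.115, limma adjusted p = 0.000897). Ndufa8 was 10.72, 10.76 and 10.61 in ESC wt, against 11.14, 10.89, 10.93 and 11.10 in MEF wt (−0.32 ± 0.111, limma adjusted p = 0.0214). None of these ranges overlapped, but the genes were picked by this same comparison, so this adds no support. The call of Ndufa8 was lost without ESC wt 3 (−0.27), MEF wt 1 (−0.27) or MEF wt 4 (−0.29), and those of Ndufa8 (−0.29) and Ndufa2 (−0.48) with arrays set to the same median. With slide as a fixed block all 3 lost their call. There Ndufa5 stood at −0.56, Ndufa2 at −0.23 and Ndufa8 at −0.47 (limma adjusted p = 0.0929, 0.504 and 0.239). In the fit without that block, subunits of the same complex thus differed in opposite directions between the same groups of arrays.

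Complex II could be read from 2 of its 4 genes. Sdhb, the iron-sulphur subunit, was 8.69, 8.40 and 8.53 in ESC wt, against 8.67, 8.67, 8.61 and 8.65 in MEF wt. Sdhc, a membrane anchor, was 10.46, 10.19 and 10.71 in ESC wt, against 10.70, 10.50, 10.45 and 10.81 in MEF wt. The groups overlapped for both, and the differences of −0.11 and −0.16 did not pass (limma adjusted p = 0.441 and 0.357).

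In complex III, Uqcrc1, a core protein, was 11.13, 10.87 and 10.84 in ESC wt, against 9.76, 10.40, 10.32 and 9.83 in MEF wt, a difference of 0.87 ± 0.186 (limma adjusted p = 0.000692). Uqcr10, a small subunit, was 12.74, 12.70 and 12.77 in ESC wt, against 12.17, 11.92, 11.90 and 12.32 in MEF wt (0.66 ± 0.116, limma adjusted p = 0.000120). Cyc1, cytochrome c1, was 10.85, 10.68 and 10.61 in ESC wt, against 9.97, 10.39, 10.22 and 9.95 in MEF wt (0.58 ± 0.148, limma adjusted p = 0.00294). Uqcr11 (0.56) and Uqcrc2 (0.23) also passed, and Uqcrh (0.15) and Uqcrq (−0.01) did not.

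In complex V, Atp5a1, the alpha subunit of the catalytic head, was 7.48, 7.26 and 7.57 in ESC wt, against 6.35, 6.09, 6.20 and 6.34 in MEF wt, a difference of 1.19 ± 0.164 (limma adjusted p = 8.48e-06). Atp5b, its catalytic partner, was 14.11, 14.12 and 14.06 in ESC wt, against 13.91, 13.83, 13.83 and 13.81 in MEF wt, higher by 0.25 ± 0.070 (limma adjusted p = 0.00562). The proton-carrying subunit c is made from several genes: Atp5g2 was higher by 0.51 ± 0.106 and Atp5g3 by 0.34 ± 0.082 (limma adjusted p = 0.000525 and 0.00162). The central stalk gene Atp5c1 (0.49) and Atp5j2 (0.47) of the membrane part passed as well. No gene of complex V passed as lower. Atp5l (−0.20) and Atp5pb (−0.24) had the lowest values, and neither passed.

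Slides, as inferred from the array codes, bear on all of these values, since no slide held both ESC wt and MEF wt arrays. The slide that held ESC het 2 and 3 and the 3 ESC hom arrays also held MEF wt 4. Within it, the median difference of the 70 genes, ESC minus MEF, was 0.19, against 0.02 for all genes tested, a value with no test from 1 MEF array that also stands in the comparison above. No other slide held both cell types. A fit with slide as a fixed block therefore links ESC to MEF through MEF wt 4 alone, and slide and that array cannot be told apart in it. With slide as a fixed block, limma called 7 of the 70 genes in wild type, where it called 14.3% of all genes. They were Cox7a1, Cox6b2, Cox5a, Ndufs6, Ndufa7 and Ndufa4 (higher) and Cox6a2 (lower). In that fit Cox7a1 was 3.62 higher and Cox6a2 stood at −3.31 (limma adjusted p = 0.000724 and 5.03e-05). Cox6a1 (0.02), Cox7b (−0.03) and Cox5b (−0.11) took the opposite sign in it, and none of them passed.

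Other mitochondrial gene lists, written down by function, were read in the same fit of ESC wt against MEF wt, where 59.1% of all genes were called (31.9% higher and 27.2% lower). Of 72 mitochondrial ribosomal protein genes tested, 50 were higher and 1 lower (70.8% called, median 0.62, against 0.05 for all genes), with Mrpl15 at 1.91 ± 0.124 and Mrps31 at 1.46 ± 0.126. Of 40 assembly factors of the chain, 17 were higher and 2 lower (47.5% called, below the share of all genes, median 0.37). Ecsit, which helps to assemble complex I, was at 1.58 ± 0.191 and Fmc1, an assembly factor of ATP synthase, at 1.41 ± 0.273. Of 10 citric acid cycle genes 5 were higher and 0 lower (50% called, median 0.41), among them Idh3g (0.62), Suclg2 (0.76) and Fh1 (0.44). Of 12 genes for cytochrome c and coenzyme Q, 2 were higher and 1 lower (25% called, median 0.11), with Coq7 at 0.91 and Coq10b at −1.83.

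Regulators of nuclear respiratory genes gave 7 higher and 1 lower of 13 (median 0.60), and the 61.5% called is near the 59.1% of all genes. Esrrb, an oestrogen-related receptor that is also a pluripotency factor, had a fitted difference of 8.15. It is 1 of the 10 pluripotency markers, of which 1 or 2 were above background on each MEF array. A value at background in MEF would make that difference depend on the background. Tfam, which packages and transcribes mitochondrial DNA, was 1.47 ± 0.138 higher. Polrmt, the mitochondrial RNA polymerase, was 0.69 higher, and Gabpa, an ETS factor, 0.80 higher. Nrf1 (−0.30) and Esrra (0.06) did not pass. Of 7 subunits encoded by mitochondrial DNA that could be tested, 0 passed in limma and 0 had an unadjusted p under 0.05 (median −0.04), with ND1 at 0.32 ± 0.173 and COX2 at 0.19 ± 0.217. In hom ESC against hom MEF 3 of the 7 were higher (median 0.43, 42.9% called, against 56.7% of all genes): ND4L (0.79), COX2 (0.76) and ATP6 (0.95). In het 0 of the 7 passed (median 0.27), and the difference between genotypes was called for none of them.

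**Figure D3:**
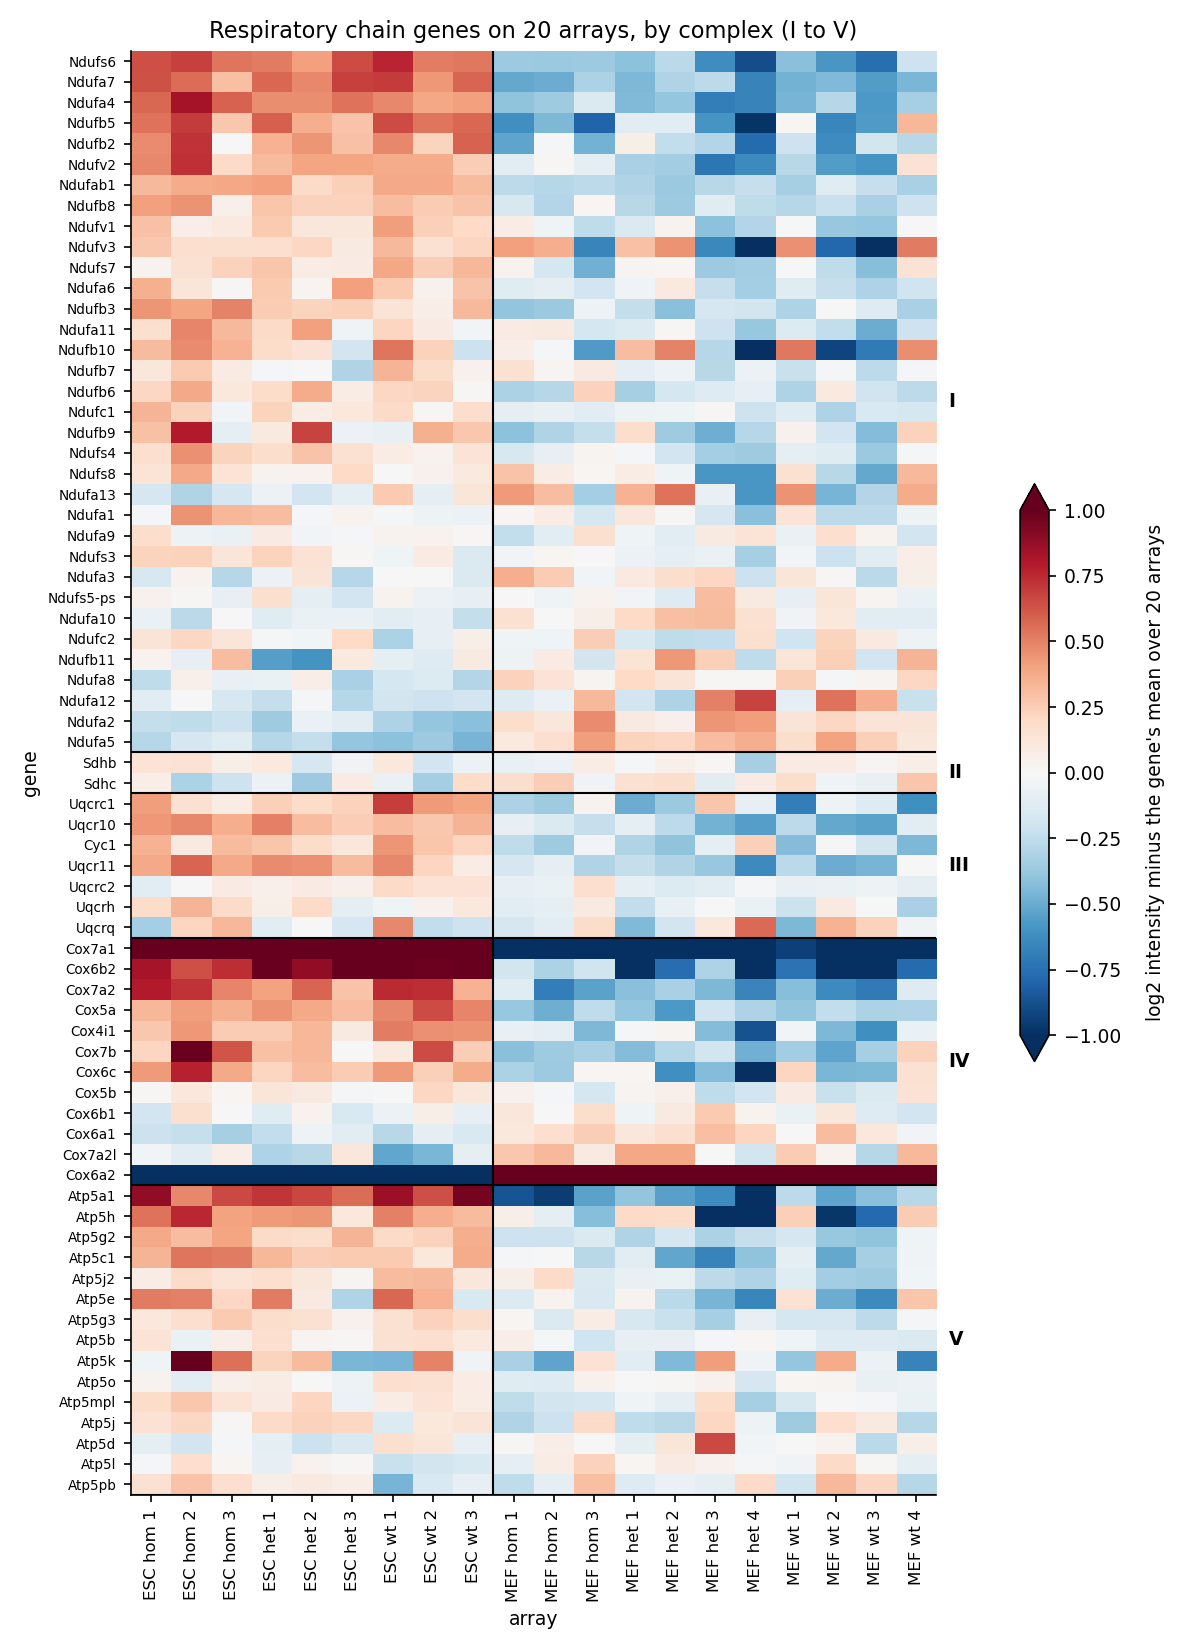
Rows are the 70 genes by complex and columns the 20 arrays, and colour is the log2 intensity minus the gene's mean over all arrays, limited to −1 and 1. Red on the ESC side marks the genes that are higher there, and Cox6a2 shows the opposite colours, while genes such as Ndufv3 and Atp5h vary mainly among MEF arrays.

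The genes varied more among MEF arrays of a genotype than among ESC arrays, as did all genes tested in both. The replicates were animals in MEF and passages in ESC. Of 66 genes tested in both cell types, 52 had the larger within-group SD in MEF, with a median SD of 0.121 in ESC and 0.179 in MEF. All genes tested in both showed 5475 of 7820 larger in MEF, with medians of 0.202 in ESC and 0.296 in MEF. The largest was Ndufv3, an accessory subunit of the NADH-binding arm, with SDs of 0.04 in ESC and 0.73 in MEF. Ndufv3 was 11.65, 11.60 and 10.58 in MEF hom, 11.53, 11.68, 10.60 and 10.19 in MEF het, and 11.69, 10.45, 10.14 and 11.76 in MEF wt, against 11.32 to 11.56 on the ESC arrays. MEF hom 3, het 3, het 4, wt 2 and wt 3 were the low ones, and a second bright probe of Ndufv3 gave 10.51, 10.54, 10.17, 10.34 and 10.10 on these arrays, in that order, and 11.43 to 11.65 on the other 6.

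The same 5 arrays stood apart for other genes. Atp5h, subunit d of the ATP synthase stalk, was 8.96 in MEF hom 3, 8.30 in het 3, 7.97 in het 4, 8.42 in wt 2 and 8.61 in wt 3, against 9.29 to 9.64 on the other 6 MEF arrays. Ndufb10 was 6.05 to 6.98 on these 5 arrays and 7.25 to 7.80 on the other 6. Ndufa12 went the other way, with 10.59 to 10.94 on these 5 arrays and 9.95 to 10.20 on the other 6. Each genotype held both kinds of array. Marker medians moved with them: skeletal muscle markers were 6.32 to 7.69 on these 5 arrays and 4.60 to 5.26 on the other 6, and macrophage markers were 5.53 to 5.94 on these 5 and 6.02 to 7.51 on the other 6. Primitive endoderm markers were 7.42 to 7.85 on these 5 and 8.62 to 8.91 on the other 6. That list shares Pdgfra with the fibroblast list, and its median difference in ESC wt against MEF wt was −3.37. It is therefore not read here as a measure of endoderm cells in MEF. The part of muscle, macrophage or other cells in the values of Ndufv3, Atp5h and Ndufa12 was not tested. The 5 arrays were compared with the other 6 by no test, since they were seen in the outcome.

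**Figure D4:**
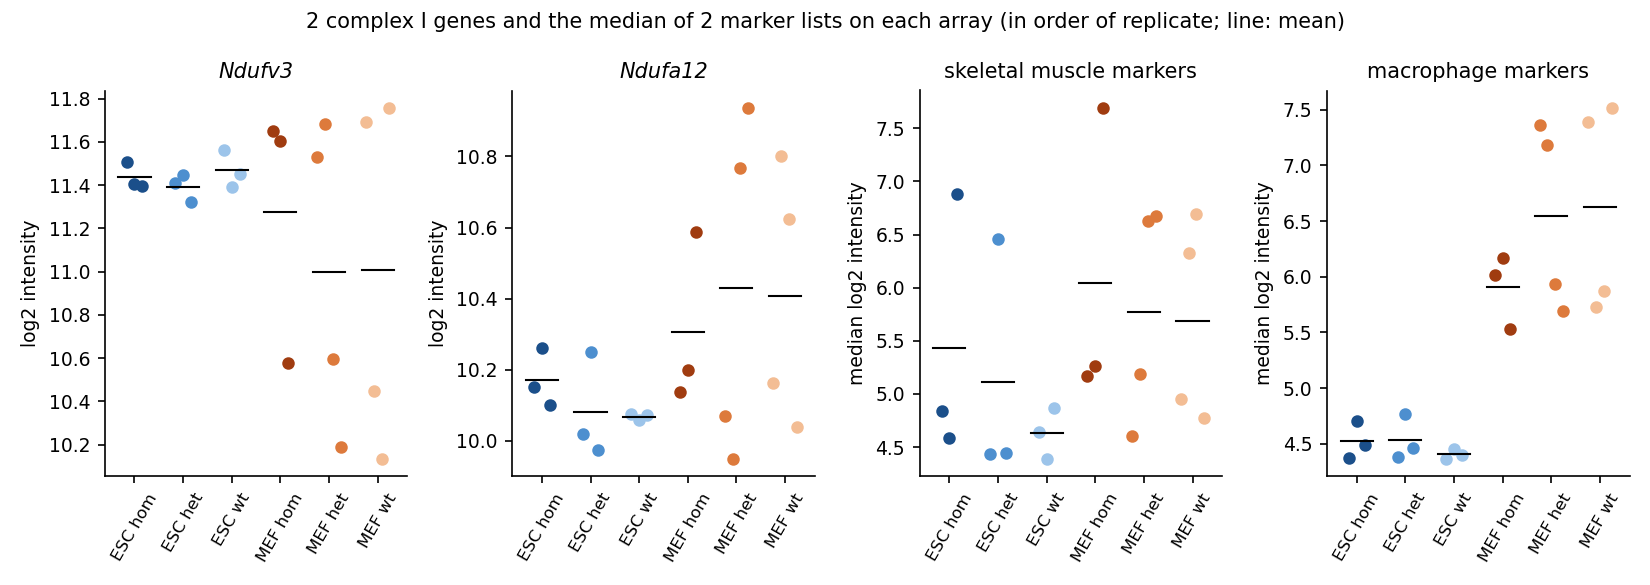
Points show single arrays by cell type and genotype in order of replicate, with the log2 intensity of Ndufv3 and Ndufa12 and the median log2 intensity of 9 skeletal muscle and of the macrophage markers, and lines are group means. MEF hom 3, het 3, het 4, wt 2 and wt 3 are low for Ndufv3 (10.14 to 10.60) and high for Ndufa12 (10.59 to 10.94).

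Comparisons of genotype ask whether loss of Mysm1 changes these genes, and within a cell type they share arrays with each other. In MEF, hom against wt gave 0 called genes of 67 in limma (0.0111% of all genes called), with 2 at an unadjusted p under 0.05 (2.99%, against 2.52% of all genes). Their median difference was 0.07, against 0.02 for all genes tested. The smallest p belonged to Cox6b2, which in the MEF normalization was 6.57, 6.44 and 6.55 in hom, against 6.01, 5.33, 4.90 and 5.97 in wt. The groups did not overlap, and the difference was 0.97 ± 0.290 (limma adjusted p = 0.999). Cox6b2 was picked by this same comparison, so the lack of overlap adds no support. Atp5a1 was 5.87, 5.78 and 6.21 in hom, against 6.48, 6.21, 6.33 and 6.47 in wt (−0.42 ± 0.184, limma adjusted p = 0.999), and Atp5j2 was at 0.24. No slide held both hom and wt MEF arrays.

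In MEF het against wt 0 of 67 genes were called (0.0111% of all genes), with 1 at an unadjusted p under 0.05 (1.49%, against 1.32% of all genes) and a median of −0.01. Ndufa10, an accessory subunit of complex I, had the smallest p: it was 11.26, 11.36, 11.37 and 11.21 in het, against 11.02, 11.17, 10.94 and 10.95 in wt (0.28 ± 0.089, limma adjusted p = 1.00). Atp5a1 was at −0.28 and Cox6c at −0.40. In MEF hom against het 0 of 67 were called (0.0111% of all genes), with 1 at an unadjusted p under 0.05 (1.49%, against 1.27% of all genes) and a median of 0.04. Ndufv2 was 11.15, 11.26 and 11.16 in hom, against 10.93, 10.90, 10.55 and 10.63 in het (0.43 ± 0.175, limma adjusted p = 1.00), and Atp5c1 was at 0.31 and Cox6b2 at 0.59.

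In ESC, hom against wt also gave 0 called genes, of 69 (0% of all genes), but 14 had an unadjusted limma p under 0.05, or 20.3%, against 11.4% of all genes. The median was 0.06, against −0.01 for all genes tested. Of the 14, Atp5pb, Atp5l, Atp5c1, Ndufa1, Ndufa4, Ndufa5, Ndufb3, Ndufc2, Uqcrh and Cox7a2l were positive, and Ndufa13, Uqcrc1, Cox5a and Cox6b2 negative. Equal replicate numbers marked arrays that deviated together in ESC, where 9 of 9 arrays were closest to one of their own number. With the replicate number as a block, limma called 2 of the 69 genes, 1 higher and 1 lower (2.90%, against 4.27% of all genes, 1.71% higher and 2.55% lower). In that fit 21 of the 69 had an unadjusted limma p under 0.05, or 30.4%, nearer to the share of all genes (25.7%).

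The higher one was Atp5pb, subunit b of the ATP synthase stalk. It was 10.61, 10.75 and 10.63 in ESC hom, against 9.97, 10.30 and 10.37 in ESC wt, with het between them at 10.51, 10.54 and 10.52. Hom lay above wt in 3 of 3 numbered pairs, by 0.45 ± 0.095 in the blocked fit (limma adjusted p = 0.0294, and 0.293 without the block). Atp5pb was picked by this same fit, so the direction of the pairs adds no support. The lower one was Ndufa13, also known as GRIM-19, a subunit that complex I needs for assembly. It was 12.27, 12.14 and 12.27 in ESC hom, against 12.71, 12.34 and 12.57 in ESC wt, with het at 12.39, 12.25 and 12.34. The blocked difference was −0.31 ± 0.072 (limma adjusted p = 0.0379, and 0.323 without the block).

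Neither call held without the libraries labelled het 1 and hom 1, a choice made after seeing the data. In that blocked fit Atp5pb stood at 0.35 and Ndufa13 at −0.25 (limma adjusted p = 0.0581 and 0.0853). Instead Ndufa1 (0.44, adjusted p = 0.0197) and Uqcr11 (0.34, adjusted p = 0.0331) passed as higher, where limma called 8.67% of all genes. All ESC hom arrays lay on one slide and all ESC wt arrays on another, so slide and genotype cannot be told apart in this pair except through het, and with slide as a block 0 genes passed. The fibroblast marker median differed between replicate numbers more than between genotypes, as given above.

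**Figure D5:**
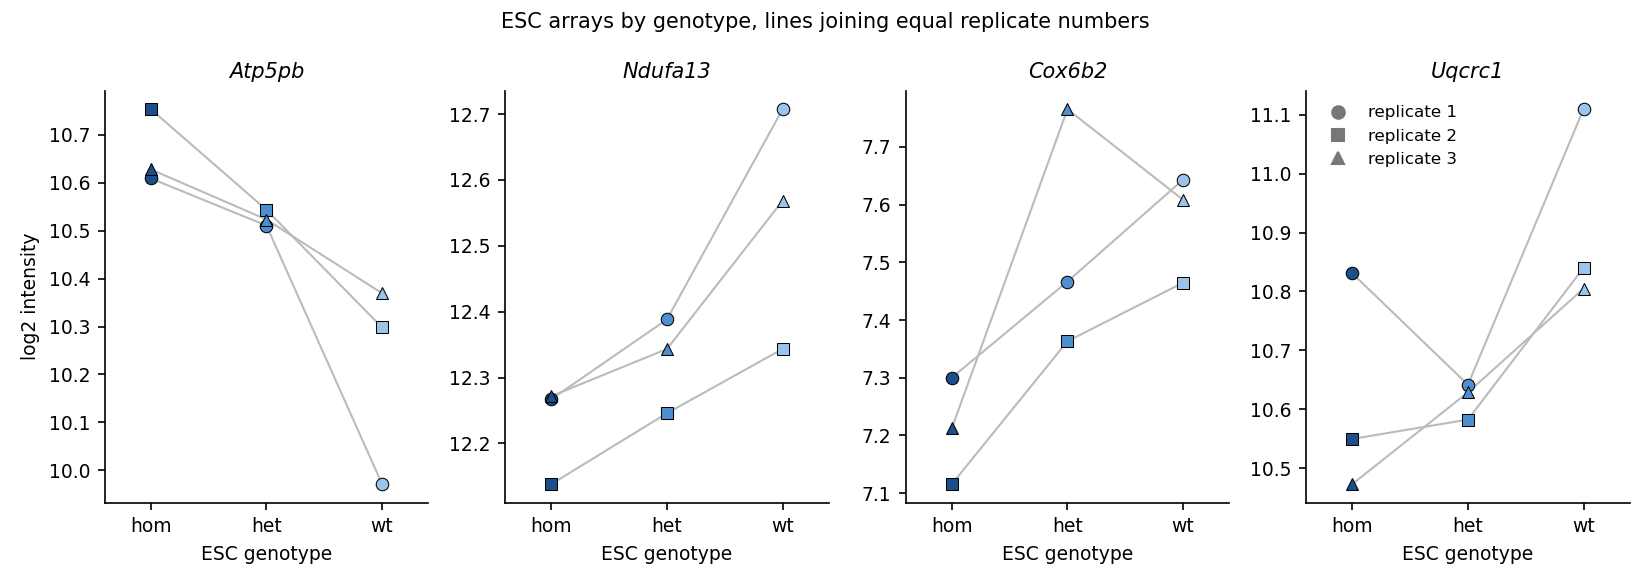
Log2 intensity of Atp5pb, Ndufa13, Cox6b2 and Uqcrc1 on the 9 ESC arrays by genotype, with symbols for the replicate number and lines joining equal numbers. Atp5pb is higher and Ndufa13 lower in hom than in wt for each number, and het lies between them.

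In ESC het against wt 0 of 69 genes were called in limma without the block (0% of all genes) and 0 with it (0.276% of all genes, 0.219% higher and 0.0575% lower), with 4 and 10 at an unadjusted p under 0.05. These shares, 5.8% and 14.5%, are near the 4.12% and 13.8% of all genes. Cox4i1 was 12.81, 12.89 and 12.62 in het, against 13.09, 13.03 and 13.02 in wt (−0.27 ± 0.084, limma adjusted p = 0.952), Atp5pb was at 0.31, and Uqcrc1 was 10.64, 10.58 and 10.63 in het, against 11.11, 10.84 and 10.80 in wt (−0.30 ± 0.119, adjusted p = 0.952). In ESC hom against het 0 of 69 were called (0% of all genes), 2 had an unadjusted p under 0.05 (2.9%, against 3.5% of all genes), and 52 of 69 differences were positive, against 49.0% of all genes, with a median of 0.08. The lean was not particular to these genes. Positive differences were 67 of 72 for mitochondrial ribosomal proteins (median 0.18) and 33 of 39 for assembly factors (median 0.15), but 4 of 10 for the citric acid cycle (median −0.009). Cox6b2 was 7.30, 7.12 and 7.21 in hom, against 7.47, 7.36 and 7.77 in het (−0.32 ± 0.142, limma adjusted p = 0.995), Cox6c was at 0.28 and Ndufb3 at 0.22. Without the libraries labelled het 1 and hom 1, the blocked fit of hom against het called Atp5k as higher (0.84, limma adjusted p = 0.0269, against 2.45% of all genes called).

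Whether the genotype difference itself differs between cell types was tested as an interaction over all 20 arrays. For hom against wt, ESC minus MEF, limma called 0 of 70 genes (0% of all genes), with 2 at an unadjusted p under 0.05 (2.86%, against 5.22% of all genes). Cox6b2 had the smallest p, with −1.30 ± 0.338 (limma adjusted p = 0.627). Fitted within each cell type, the hom minus wt difference of Cox6b2 was −0.36 in ESC and 0.97 in MEF. Atp5j2 was at −0.37 and Uqcrc2 at −0.25. For het against wt 0 of 70 were called (0% of all genes) and 0 had an unadjusted p under 0.05, against 2.54% of all genes. The lowest p-values there belonged to Atp5d (−0.43), Uqcrc1 (−0.49) and Ndufb7 (−0.30).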

How the data were processed

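The deposited table gives, per the file headers, 1 linear intensity per probe and array, a detection p-value set by the negative controls, a count of beads and the standard error of the bead signal. BeadStudio and limma are named in the submitters' processing notes, without versions. The authors deposited a second table of normalized intensity, whose method is not given in the sources used here, and it served as an alternative.

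Intensities were background-corrected, quantile-normalized and put on the log2 scale with neqc of limma 3.58.1 in R 4.3.3 (offset 16), per cell type for genotype comparisons and over all 20 arrays for ESC against MEF and for interactions. Probes with detection p under 0.01 on at least 3 arrays entered lmFit and a trended eBayes, and p-values were Benjamini-Hochberg adjusted over all 15125 (MEF), 14502 (ESC) or 17067 (all) probes, with 0.05 as the threshold. The test across genes was checked on simulated data. A gene was read from its brightest probe. A fold at background is a lower bound from the lowest signal above background on each array. Of 45281 probes, 34885 had 1 gene in the platform annotation, 18 several and 10378 none.

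Equal replicate numbers were taken as pairs in ESC, where deviations of same-numbered arrays correlated at 0.37 to 0.77 and those of different numbers at −0.62 to 0.20. In MEF, 3 of 11 arrays were closest to their own number, and the numbers were not taken as pairs.

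The genes and the other lists were chosen with earlier results of these data known. Genes named are the 3 largest called rises and falls per complex between cell types, all of complex II, tissue isoforms, core subunits, the called genes or the 3 smallest p-values of each genotype comparison, and up to 4 genes per other list. The genes described for varying among MEF arrays, and those called only after leaving out libraries, were picked after their values were seen. Alternatives covered normalization, background correction, filters, thresholds, slides, array weights, the replicate block and leaving out arrays. Promoters were scanned with Python 3.11.15 and pandas 2.3.3, and figures drawn with matplotlib 3.10.9.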

Additional observations from a re-analysis of the deposited data

Results flagged for a closer look

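A pair of arrays stood apart from the others of their group by Dixon's test, out of 86 groups of 4 arrays checked, of which chance alone would flag about 1 in 20. Ndufa2, an accessory subunit of complex I, was 11.54 in MEF wt 2, above the other 3 MEF wt arrays. Sdhb, the iron-sulphur subunit of complex II, was 8.36 in MEF het 4, below the other 3 MEF het arrays. Both values are log2 intensities from the normalization of the MEF arrays alone.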

How the results depend on the processing

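The number of respiratory chain genes called between cell types changed most with the slide block, which links the cell types through MEF wt 4 alone. With slide as a fixed block it was 7 for ESC wt against MEF wt, 9 for het and 14 for hom, where the all-array fits called 38, 35 and 31. These fits called 14.3%, 32% and 38.7% of all genes, and their medians over the 70 genes were 0.14, 0.12 and 0.02. In that setting Cox5b stood at −0.11, Cox6a1 at 0.017 and Cox7b at −0.030, each the opposite sign of its main value, and the cause was not tested. Array weights raised the hom count to 47 (72.4% of all genes called). The other alternatives gave 30 to 42 genes in wt, and leaving out 1 array at a time gave 31 to 38 in wt, 26 to 36 in het and 25 to 34 in hom. Cox6b1, which did not pass, ranged from −0.00094 (without ESC wt 2) to 0.104 (without MEF wt 2). Genotype comparisons and interactions gave 0 genes when any 1 array was left out. The replicate block gave 2 for ESC hom against wt (Atp5pb and Ndufa13) and changed no other count of calls. With the block and without the libraries labelled het 1 and hom 1, ESC hom against wt again gave 2 genes, Ndufa1 and Uqcr11 in place of the first pair, and ESC hom against het gave 1 (Atp5k). Within slide 4, which leaves MEF hom 1 and hom 2 against het 4 alone, limma called 40 of the 67 genes and 61.1% of all genes, with the lone array assumed to vary like the others. Het 4 belongs to the MEF arrays that stood apart with low Ndufv3, and hom 1 and hom 2 do not. The skeletal muscle marker median was 6.67 in het 4, against 5.17 in hom 1 and 5.26 in hom 2. Genotype and that split of the MEF arrays cannot be told apart within slide 4. The calls there are therefore not read as differences between hom and het. Among the genes named between cell types, Cox6a1, Cox7a2l, Cox7b and Ndufa8 lost their call when 1 array was left out. Genes at background, such as Cox6a2 in ESC, are limited by signal over background to a lower bound.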
